A study of Mus musculus with 9 samples.

Results

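The 10 genes described here encode the salt-inducible kinases and the proteins around them in cAMP-CREB signalling: the kinases Sik1, Sik2 and Sik3, the transcription factors Crem and Creb1, the CREB coactivators Crtc2 and Crtc3, and the cAMP-degrading phosphodiesterases Pde3b, Pde4b and Pde4d. They were chosen by symbol for their place in the pathway, and all 10 were found among the 55487 gene IDs in the files and passed the filter on low counts, which kept 13374 genes. Naive CD4+ T cells were isolated from spleen and their poly(A) RNA was sequenced; these are helper T cells before their first encounter with antigen. All mice were wild type (WT) and of the strain C57BL6/J. The 9 libraries fell into 3 groups of 3: untreated mice, mice given an antibody that neutralizes IL-1b (anti-IL-1b) on 10 days in a row, and mice given MCC950, an inhibitor of the NLRP3 inflammasome that matures IL-1b, on 10 days in a row. Both agents were given to the whole animal, so the cells and organs reached are not defined by the design, and the labels name no control antibody or vehicle for the untreated group. Age, sex and dose are not stated in the sources used here. Whether each library is from its own mouse is not in the labels, so the p-values speak of spread between libraries, part or all of which may be technical.

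When a Gs-coupled receptor such as the prostaglandin E2 receptor is engaged, adenylyl cyclases make cAMP, which frees the catalytic subunits of protein kinase A. Protein kinase A phosphorylates CREB at its target genes and also phosphorylates and inhibits the salt-inducible kinases, which are activated by the kinase LKB1. Active salt-inducible kinases hold the CRTC coactivators in the cytoplasm bound to 14-3-3 proteins; once they are inhibited, or calcineurin removes the phosphates, CRTCs enter the nucleus and join CREB. Sik1 and Crem are themselves classical CREB targets that damp the response, and phosphodiesterases of classes 3 and 4 end the signal by degrading cAMP. In T cells, cAMP is known as a brake on activation.

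Levels are given as CPM, read counts relative to library size scaled by the TMM method, which compare libraries for one gene, and as deposited TPM, which also allow for transcript length and compare genes. Total counts per library ran from 14775375 to 21394797. The labelled cell type was checked on 9 markers of naive T cells (among them the CD3 chains, Cd4, Ccr7, Il7r, Lef1 and Tcf7), of which none was at 0 in any group and whose summed level was 6247 to 6328 CPM in untreated, 6207 to 6219 CPM in anti-IL-1b and 5701 to 5717 CPM in MCC950 libraries. Summed markers of other cells were higher in both treated groups: 9 B cell markers ran from 17.4 to 23.4 CPM in untreated, from 85.6 to 92.9 CPM in anti-IL-1b and from 94.7 to 109 CPM in MCC950 libraries. The sum of 9 neutrophil markers, 4 of which (S100a8, Retnlg, Mmp8 and Ly6g) were at 0 in the untreated group, ran from 1.10 to 1.34, 28.5 to 29.0 and 13.7 to 15.9 CPM in the same order. A sum of 8 cytotoxic and NK cell markers went from between 63.0 and 68.4 CPM to between 90.3 and 97.5 CPM and between 93.5 and 97.2 CPM, and 9 monocyte, macrophage and dendritic cell markers went from between 8.05 and 9.63 CPM to between 15.6 and 19.5 CPM and between 18.6 and 21.2 CPM. The 6 red cell markers summed to 0.122 to 0.445, 4.38 to 5.005 and 5.92 to 9.69 CPM. The 14 genes listed as marks of heat shock and handling moved the other way, from between 21803 and 22019 CPM in untreated libraries to between 5988 and 6088 CPM and between 7269 and 7413 CPM. The part of these shifts in the results below was not tested, and in bulk RNA fewer cells of a type and less RNA per cell cannot be told apart.

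Most of the pathway's core genes were lower in the cells of treated mice, and the fall was very unequal. Sik1 and Crem fell several-fold with either agent, Pde4d and Pde4b fell by between 27.9% and 48.0%, and the others moved by 24.98% or less. With anti-IL-1b, 0 of the 10 genes were higher and 8 were lower at an adjusted p under 0.05 in edgeR's quasi-likelihood test, against a background of 34.0% of all tested genes called, 15.4% higher and 18.5% lower. With MCC950, 0 were higher and 9 lower, where 36.8% of all tested genes were called, 17.7% higher and 19.1% lower. The median log2 fold change of the 10 genes was -0.30 with anti-IL-1b and -0.35 with MCC950, beside 0.00 and 0.01 over all tested genes. Sik1 and Crem were lower at least 2-fold in both comparisons, a size of fall that 2.81% of all tested genes reached with anti-IL-1b and 2.84% with MCC950. Both comparisons use the same 3 untreated libraries, so they are not independent of each other.

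**Figure D1:**
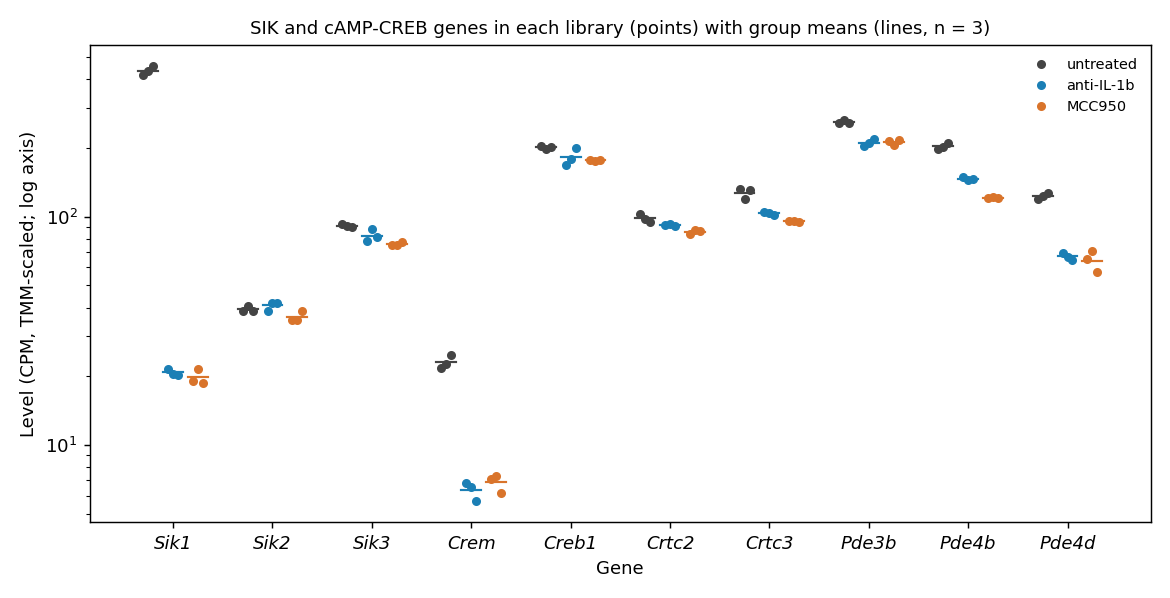
Level of each of the 10 genes (CPM, TMM-scaled, log axis) in every library, as points coloured by group, with a line at the mean of each group of 3. Sik1 stands between 418 and 456 CPM in untreated libraries and between 18.7 and 21.6 CPM in the 6 treated ones, while the points of Sik2 and Creb1 lie close together.

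Sik1 encodes the inducible member of the kinase family and showed the largest change of the 10 genes. It stood at 418, 436 and 456 CPM in the untreated libraries, at 21.6, 20.6 and 20.3 CPM with anti-IL-1b and at 19.1, 21.6 and 18.7 CPM with MCC950. The 3 untreated libraries were far above all 6 treated ones, and the treated groups overlapped. The log2 fold change was -4.39 ± 0.05 (SE; adjusted p = 4.07e-41) with anti-IL-1b, a level 95.2% lower, and -4.46 ± 0.05 (adjusted p = 1.58e-41) with MCC950, a level 95.5% lower. Ordered from the most negative fold change among the 13374 genes, Sik1 held place 24 with anti-IL-1b and place 29 with MCC950. Between the agents it differed by 0.07 on the log2 scale (95% interval -0.06 to 0.21, adjusted p = 0.547). Its reads lay on chromosome 17, 31844250 to 31855804 on the minus strand in mm10 (ENSMUSG00000024042), where the annotation has no overlapping gene. The counts behind these values were 6862 to 8819 per untreated and 310 to 408 per treated library.

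Sik2 and Sik3, the widely expressed members of the family, changed little or did not pass the test. Sik2 stood at 38.7, 40.5 and 38.6 CPM in untreated, at 38.8, 42.1 and 41.9 CPM in anti-IL-1b and at 35.2, 35.2 and 38.6 CPM in MCC950 libraries. Its values overlapped between untreated and anti-IL-1b libraries, and the MCC950 libraries lay just below the untreated ones. Its log2 fold change was 0.06 (95% interval -0.09 to 0.21, adjusted p = 0.593) with anti-IL-1b and -0.11 (95% interval -0.26 to 0.04, adjusted p = 0.259) with MCC950, so neither passed the test. Scaling by library totals alone gave a call for Sik2 with anti-IL-1b, at 0.19 (adjusted p = 0.0469).

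Sik3 stood at 92.5, 91.0 and 90.3 CPM in untreated, at 78.2, 88.0 and 81.6 CPM in anti-IL-1b and at 74.9, 75.4 and 77.4 CPM in MCC950 libraries. All 3 libraries of each treated group were below the untreated ones, and the anti-IL-1b libraries varied more among themselves. Sik3 fell by 0.27 on the log2 scale with MCC950 (adjusted p = 1.53e-04) and by 0.14 with anti-IL-1b (adjusted p = 0.0377). The fall with anti-IL-1b passed in 7 of 21 alternative settings and lost its call in 7 of the 9 fits that left out 1 library, all but those without anti-IL-1b replicate 2 or MCC950 replicate 2, with adjusted p up to 0.188 without anti-IL-1b replicate 1; the fall with MCC950 passed in all 21.

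Sik3 lies on chromosome 9, 46012820 to 46224194 on the plus strand, and Sik2 on chromosome 9, 50892801 to 51009073 on the minus strand. Sik2's 3′ end overlaps Ppp2r1b on the opposite strand, which had between 1303 and 2158 counts per library; the strand setting of the counts is unknown here, so Sik2's values may hold reads of that gene.

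Shown here are the sequences around the starts of Sik3 and Sik2, the 2 kinase genes with a matched promoter. Both sequences carry the core of the CREB motif. They are RefSeq promoters of GRCm38.p6, read 5′ to 3′ on the gene's strand, with TGACG in capitals, or CGTCA where it lies on the other strand. The Sik3 stretch is chr9:46012670-46012819 (plus strand, the 150 bases before the start), and the Sik2 stretch is chr9:51009054-51009193 (minus strand, 120 bases before and 20 after the start).
Sik3: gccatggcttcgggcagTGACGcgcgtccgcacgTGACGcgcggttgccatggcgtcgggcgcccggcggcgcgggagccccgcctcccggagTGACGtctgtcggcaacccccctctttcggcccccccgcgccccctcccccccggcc
Sik2: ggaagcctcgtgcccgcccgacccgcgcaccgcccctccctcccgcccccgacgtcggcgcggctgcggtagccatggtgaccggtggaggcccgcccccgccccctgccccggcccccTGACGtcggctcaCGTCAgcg

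The motif was sought on both strands in 300 bases around each start, 250 before and 50 after. Promoters were matched for 6 of the 10 genes (Sik2, Sik3, Creb1, Crtc3, Pde4b and Pde4d), and none was matched for Sik1, Crem, Crtc2 and Pde3b. Sik3 held 3 copies of the core, which begin 133, 116 and 57 bases before the start, and Sik2 held 2, which begin 1 base before the start and at base 13 after it. Of all 32851 promoters of this length, 20.8% held at least 1 copy and 5.0% held 2 or more. Pde4b held 1 copy in 1 of its 4 promoters, 34 bases before the start, and Creb1, Crtc3 and Pde4d held none in this window. The full site TGACGTCA, which contains the core on each strand, was in 1.8% of all promoters and in none of these 9. A match describes letters only and does not show that CREB binds there.

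Because Sik1 fell far more than the other two kinase genes, the make-up of the family changed. Per transcript length, the 3 genes summed to 218 ± 9.19 TPM (SD, n = 3) in untreated libraries, of which Sik1 held 78.2% ± 0.614, Sik3 13.1% ± 0.366 and Sik2 8.73% ± 0.445. With anti-IL-1b the sum was 53.6 ± 2.73 TPM, and Sik1 held 17.8% ± 5.74 of it, Sik3 48.9% ± 1.54 and Sik2 33.4% ± 4.21. With MCC950 the sum was 45.8 ± 3.06 TPM, with shares of 15.8% ± 3.59 for Sik1, 49.5% ± 2.53 for Sik3 and 34.7% ± 4.78 for Sik2. Sik3 was therefore the most abundant of the 3 transcripts in both treated groups and Sik1 the least, and in untreated libraries Sik1 was the most abundant.

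The spread of Sik1's share within the anti-IL-1b group moved with the transcript lengths used for TPM. In anti-IL-1b replicate 1, Sik1 stood at 13.5 TPM with a mean transcript length of 2615 bases, against 8.02 and 7.26 TPM and 4071 and 4429 bases in the other two libraries. On the CPM scale these 3 libraries ran only from 20.3 to 21.6.

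**Figure D2:**
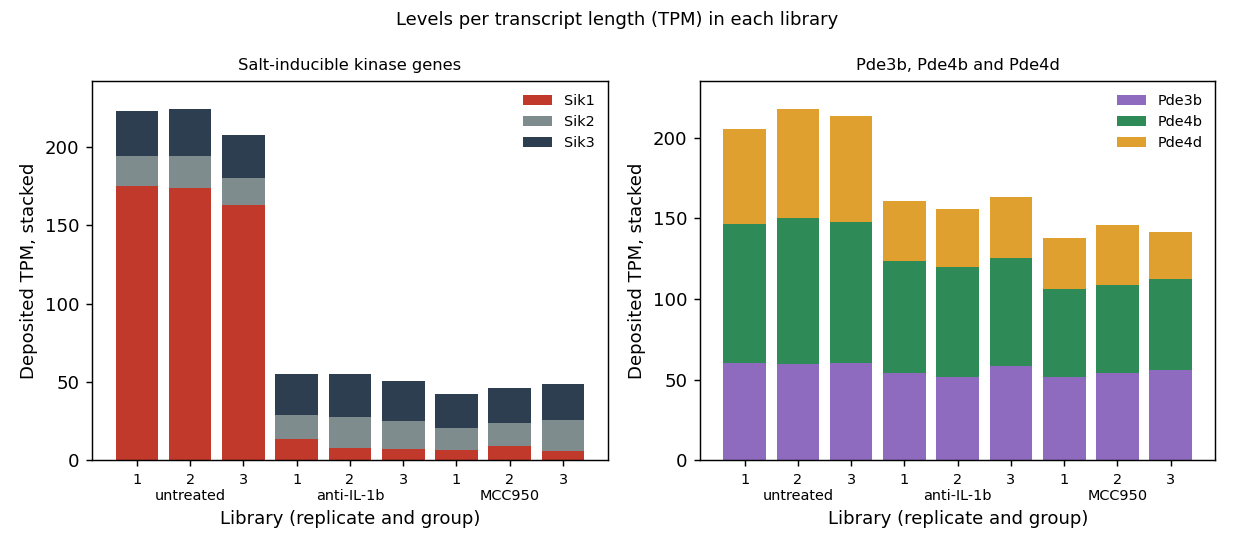
Deposited TPM per library, stacked by gene, for the 3 salt-inducible kinases (left) and for Pde3b, Pde4b and Pde4d (right). The kinase bars fall from about 218 TPM to 53.6 and 45.8 TPM on average, nearly all by loss of the Sik1 segment, while in the phosphodiesterase bars Pde4b and Pde4d shrink most.

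Among the transcription factors, Crem fell several-fold and Creb1 moved slightly. Crem encodes both activators and repressors of cAMP-responsive transcription, including the short repressor ICER that cAMP itself induces. Its level was 21.8, 22.7 and 24.9 CPM in untreated, 6.81, 6.57 and 5.71 CPM in anti-IL-1b and 7.06, 7.34 and 6.15 CPM in MCC950 libraries. Every treated library was below every untreated one. The log2 fold change was -1.86 ± 0.14 (SE; adjusted p = 9.31e-14) with anti-IL-1b, 3.63-fold lower, and -1.76 ± 0.14 (adjusted p = 2.74e-13) with MCC950, 3.38-fold lower. The agents differed by -0.10 (95% interval -0.41 to 0.21), an interval wide enough that a modest difference would not be detectable at 87 to 139 counts per treated library. Crem has 39 transcripts in the files, and the gene-level counts do not separate ICER from the activators.

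Crem spans chromosome 18, 3266048 to 3337748 on the minus strand. At its 5′ end it overlaps Gm6225 on the opposite strand, whose counts were also lower in treated libraries, at 11.7 to 35.2 against 45.7 to 92.0 in untreated ones. Crem itself had 358 to 476 counts in untreated and 87 to 139 in treated libraries, and whether reads are shared between the pair was not tested.

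Creb1 encodes CREB, the activator that protein kinase A phosphorylates. It stood at 205, 197 and 202 CPM in untreated, at 169, 179.6 and 199 CPM in anti-IL-1b and at 178, 176 and 177 CPM in MCC950 libraries. Anti-IL-1b replicate 3 lay within the untreated range, whereas all MCC950 libraries were below it. Creb1 fell by 0.14 on the log2 scale with anti-IL-1b (adjusted p = 0.00965) and by 0.19 with MCC950 (adjusted p = 5.87e-04). The call with anti-IL-1b was lost without untreated replicate 1 (adjusted p = 0.0574) and without anti-IL-1b replicate 1 (-0.09, adjusted p = 0.128). Per transcript length, Crem made up 29.7% ± 1.88 of the Creb1 and Crem transcripts in untreated libraries, 12.7% ± 2.86 with anti-IL-1b and 16.6% ± 3.95 with MCC950 (SD, n = 3). Creb1 lies on chromosome 1, 64532645 to 64604548, on the plus strand.

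The coactivators Crtc2 and Crtc3 are direct substrates of the salt-inducible kinases. Crtc3 stood at 132, 119.6 and 131 CPM in untreated, at 105, 104 and 102 CPM in anti-IL-1b and at 95.4, 95.9 and 95.3 CPM in MCC950 libraries. The 3 groups did not overlap, and the treated libraries were tightly grouped. Crtc3 fell by 0.30 on the log2 scale with anti-IL-1b (adjusted p = 3.72e-06) and by 0.41 with MCC950 (adjusted p = 3.30e-09). On log2(TPM + 1) its fall with anti-IL-1b did not pass (-0.09, adjusted p = 0.388). The agents differed by 0.12 (95% interval 0.02 to 0.22), which did not pass after adjustment (adjusted p = 0.111).

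Crtc2 stood at 103, 97.8 and 95.1 CPM in untreated, at 91.7, 92.8 and 91.0 CPM in anti-IL-1b and at 84.0, 87.7 and 86.5 CPM in MCC950 libraries. All treated libraries were below all untreated ones, by small margins. Its log2 fold change was -0.19 with MCC950 (adjusted p = 0.00230), which passed, and -0.10 with anti-IL-1b (95% interval -0.21 to 0.00, adjusted p = 0.126), which did not. Per transcript length Crtc2 was the most abundant of the 3 CRTC genes, at 60.4% ± 3.88 of their transcripts in untreated libraries, ahead of Crtc3 at 31.3% ± 1.80 and Crtc1 at 8.37% ± 2.20. Its TPM moved the other way from its CPM with anti-IL-1b, from 70.8 ± 6.74 to 81.2 ± 8.65, beside a mean transcript length of 2100 bases in the untreated and 1928 bases in the anti-IL-1b group. Crtc2 lies on chromosome 3, 90254163 to 90264125 (plus strand), and Crtc3 on chromosome 7, 80586627 to 80688877 (minus strand).

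The 3 phosphodiesterases fell with both agents, Pde3b with a call that TPM did not give. Pde4d stood at 119.6, 124 and 127 CPM in untreated, at 69.4, 67.0 and 64.6 CPM in anti-IL-1b and at 65.1, 70.5 and 57.1 CPM in MCC950 libraries. The untreated libraries were clear of all treated ones, and the treated groups overlapped. Pde4d, a cAMP-specific enzyme, was 45.8% lower with anti-IL-1b (log2 fold change -0.88 ± 0.06, SE; adjusted p = 2.55e-15) and 48.0% lower with MCC950 (-0.94 ± 0.06, adjusted p = 2.73e-16). The gene spans 1503514 bases on chromosome 13, 108449948 to 109953461 on the plus strand. Among the 5 genes annotated inside it, the processed pseudogene Rps3a3 held at most 13.9 counts in a library, against 984 or more for Pde4d.

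Pde4b is the class 4 enzyme best known in T cell receptor signalling. It stood at 197, 203 and 211 CPM in untreated, at 149, 145 and 146 CPM in anti-IL-1b and at 121, 122 and 121 CPM in MCC950 libraries. The 3 groups were fully separate, with MCC950 lowest. Pde4b was 27.9% lower with anti-IL-1b (log2 fold change -0.47 ± 0.04, SE; adjusted p = 8.07e-13) and 40.5% lower with MCC950 (-0.75 ± 0.04, adjusted p = 7.93e-19). Pde4b lies on chromosome 4, 102087543 to 102607259, on the plus strand.

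Pde4b was the only one of the 10 genes to pass the test between the agents: it was higher with anti-IL-1b than with MCC950 by 0.28 ± 0.04 on the log2 scale (SE; adjusted p = 3.35e-06). In that comparison 1 of the 10 genes was higher, 0 were lower and 9 did not pass, where 13.2% of all tested genes were called, 6.13% higher and 7.11% lower. The difference held its call in all 21 alternative settings, between 0.26 and 0.31. The summed neutrophil markers also differed between these groups, at 28.5 to 29.0 CPM with anti-IL-1b and 13.7 to 15.9 CPM with MCC950, and their part in this difference was not tested. The median log2 difference of the 10 genes between the agents was 0.08, beside 0.00 over all genes.

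Pde3b, the class 3 enzyme that cGMP inhibits, stood at 257, 264 and 258 CPM in untreated, at 204, 210.3 and 219.5 CPM in anti-IL-1b and at 215, 205 and 217 CPM in MCC950 libraries. Treated libraries were all below untreated ones and the treated groups overlapped. Its log2 fold change was -0.30 (adjusted p = 1.26e-08) with anti-IL-1b and -0.29 (adjusted p = 1.98e-08) with MCC950, and -0.01 (95% interval -0.08 to 0.07) between them. On log2(TPM + 1) it lost its call with both agents, at -0.13 (adjusted p = 0.145) and -0.15 (adjusted p = 0.104). Pde3b lies on chromosome 7, 114415281 to 114539251, on the plus strand. Per transcript length, the class 3 and 4 genes summed to 213 ± 6.21 TPM in untreated, 160.3 ± 3.64 TPM in anti-IL-1b and 142 ± 4.32 TPM in MCC950 libraries (SD, n = 3). Pde4d's share of this sum went from 30.02% ± 1.26 to 22.9% ± 0.205 and 23.0% ± 2.43, and Pde3b's from 28.3% ± 0.992 to 34.2% ± 1.59 and 37.9% ± 1.38. Pde3a, Pde4a and Pde4c each held less than 1% of the sum in every library.

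**Figure D3:**
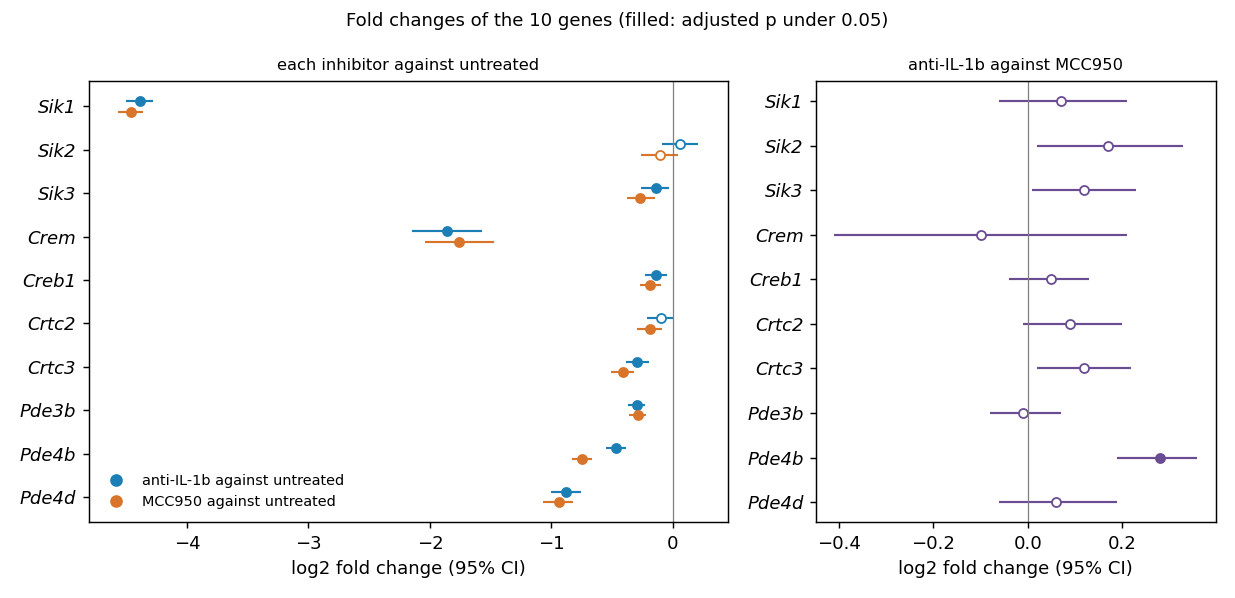
Log2 fold change of each gene with its 95% interval, for each agent against untreated (left) and for anti-IL-1b against MCC950 (right); filled points have an adjusted p under 0.05. Sik1 and Crem stand apart on the left, Sik2 is the only gene with open points for both agents, and Pde4b is the only filled point on the right.

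Set in order of TPM, the 10 genes also changed places. In untreated libraries Sik1 was highest at 170.4 ± 6.39 TPM, followed by Pde4b at 88.1 ± 2.21 TPM. Crtc2 (70.8 ± 6.74), Creb1 (67.8 ± 6.74), Pde4d (63.9 ± 4.49) and Pde3b (60.1 ± 0.358) came next. The ranges of Crtc2, Creb1 and Pde4d overlapped, while every Crtc2 and Creb1 library was above every Pde3b library. Crtc3 at 36.6 ± 2.07, Crem at 28.8 ± 4.11, Sik3 at 28.5 ± 1.41 and Sik2 at 19.1 ± 1.74 TPM closed the order, with Crem and Sik3 within each other's spread. With anti-IL-1b the lowest were Sik1 at 9.59 ± 3.39 and Crem at 9.07 ± 1.86 TPM, which did not differ beyond their spread. With MCC950 they were Sik1 at 7.24 ± 1.67 and Crem at 11.5 ± 3.23 TPM, where every Crem library was above every Sik1 library.

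The smaller falls depend on how libraries are scaled. TMM factors were 0.945 to 0.947 in untreated libraries, 1.031 to 1.035 with anti-IL-1b and 1.023 to 1.024 with MCC950. Scaling by library totals alone brought the median over all genes to 0.13 with anti-IL-1b and 0.12 with MCC950, and every gene with it. Under it the splits of called genes were 3929 higher and 1344 lower with anti-IL-1b and 4009 and 1587 with MCC950, against 2066 and 2479, and 2369 and 2552, with TMM. Sik3 and Creb1 then stood at -0.02 and -0.01 with anti-IL-1b, without a call, and Creb1 and Crtc2 lost theirs with MCC950, at -0.07 and -0.08. Sik1, Crem, Pde4b and Pde4d passed in all 21 alternative settings for both agents.

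**Figure D4:**
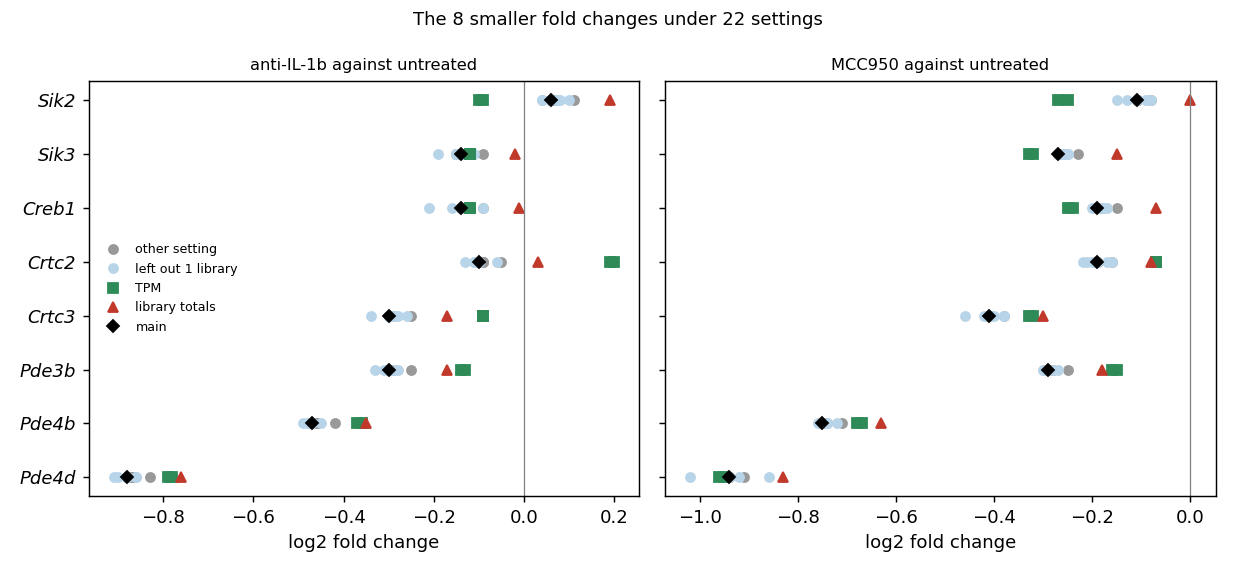
Log2 fold changes of the 8 genes with smaller changes against untreated, under the main setting (diamonds) and 21 alternatives, of which TPM (squares), library totals (triangles) and leaving out 1 library (pale points) are marked. Pde4d and Pde4b stay left of 0 throughout, from -0.91 to -0.76 and from -0.49 to -0.35 with anti-IL-1b, while Sik2, Sik3, Creb1 and Crtc2 come near or cross 0.

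The other genes of the pathway are described from lists, whose counts are to be read against all tested genes: 15.4% were higher and 18.5% lower with anti-IL-1b, and 17.7% higher and 19.1% lower with MCC950. Of 21 cAMP receptors and producers, 14 passed the filter; 3 were higher and 5 lower with each agent, with medians of -0.09 with anti-IL-1b and -0.08 with MCC950. The prostaglandin E2 receptor gene Ptger4 stood at 73.1, 80.0 and 75.4 CPM in untreated, at 34.2, 37.7 and 37.9 CPM in anti-IL-1b and at 40.0, 40.4 and 40.7 CPM in MCC950 libraries. All treated libraries were well below the untreated ones, with log2 fold changes of -1.06 (adjusted p = 5.66e-16) and -0.92 (adjusted p = 2.30e-14).

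The cyclase genes Adcy6 and Adcy7 were higher. Adcy6 rose by 0.38 with anti-IL-1b (adjusted p = 4.33e-09) and 0.49 with MCC950 (adjusted p = 4.97e-12), and Adcy7, the more counted of the pair at 488 ± 14.6 CPM in untreated libraries, by 0.23 and 0.29 (adjusted p = 1.98e-08 and 6.27e-11). The prostacyclin receptor gene Ptgir stood at 4.96 ± 0.602 CPM in untreated, 5.19 ± 0.763 CPM in anti-IL-1b and 8.91 ± 0.395 CPM in MCC950 libraries; it was higher with MCC950 than in untreated libraries (0.84, adjusted p = 4.14e-04) and than with anti-IL-1b (adjusted p = 0.00354, but 0.0523 on log2(TPM + 1)). Further calls in the list were named after their values were seen. With both agents they were the adenosine receptor gene Adora2a (-0.50 and -0.27, adjusted p = 2.19e-04 and 0.0347) and Vipr1 (-0.09 and -0.14, adjusted p = 0.0253 and 0.00104). With anti-IL-1b they were Gnas (-0.09, adjusted p = 0.0385) and Adcy1 (2.24, SE 0.67, adjusted p = 0.00828), and with MCC950 Hrh2 (-0.44, adjusted p = 0.00417). Adcy1 stood at 0.227 ± 0.0925 CPM in untreated and 1.12 ± 0.223 CPM in anti-IL-1b libraries (SD, n = 3), so low that few counts carry its rise.

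Of 17 genes for protein kinase A subunits, inhibitors and anchors and for other cAMP effectors, 13 were tested; 0 were higher with either agent, and 3 were lower with anti-IL-1b and 4 with MCC950, beside 18.5% and 19.1% lower over all tested genes. The anchoring gene Akap10 fell by 0.35 and 0.34 on the log2 scale (adjusted p = 3.89e-05 and 4.39e-05), the first of which lost its call on log2(TPM + 1), at -0.22 (adjusted p = 0.0804). Akap13 fell by 0.26 with MCC950 (adjusted p = 6.55e-11), a call lost on log2(TPM + 1), at -0.03 (adjusted p = 0.706). With anti-IL-1b Akap13 fell by 0.09 (adjusted p = 0.00392), a fall that turned to 0.03 with library totals. The regulatory subunit gene Prkar1a fell by 0.18 with anti-IL-1b (adjusted p = 1.04e-05), was at 0.01 with MCC950, and differed between the agents by -0.19 (adjusted p = 2.29e-05). With library totals alone Prkar1a had no call with anti-IL-1b (-0.06, adjusted p = 0.153) and was higher with MCC950 (0.12, adjusted p = 0.00159), and on log2(TPM + 1) neither its fall with anti-IL-1b (adjusted p = 0.065) nor the difference between the agents (adjusted p = 0.19) passed. The catalytic subunit gene Prkacb fell by 0.13 with MCC950 (adjusted p = 0.00311), a call lost with library totals (-0.02) and turned to 0.13 on log2(TPM + 1). Rapgef4, an exchange factor that cAMP activates directly, fell by 0.15 with MCC950 (adjusted p = 0.0348), a call lost without untreated replicate 2 or 3 or MCC950 replicate 1 or 3, at adjusted p up to 0.169.

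Of 16 other phosphodiesterase genes, 10 were tested; 1 was higher and 1 lower with anti-IL-1b, and 1 higher and 2 lower with MCC950, against 18.5% and 19.1% lower over all tested genes. Pde1b, which calcium and calmodulin activate, rose by 0.28 with anti-IL-1b (adjusted p = 2.34e-04) and 0.17 with MCC950 (adjusted p = 0.0252, lost without untreated replicate 2 or 3 or MCC950 replicate 2 or 3, at up to 0.0974). Pde7a fell by 0.18 with each agent (adjusted p = 0.00995 and 0.00963), and its calls were lost without untreated replicate 2 (0.0739 and 0.0753), anti-IL-1b replicate 1 (0.0855) or MCC950 replicate 1 (0.082). Pde7a also lost both calls with library totals and turned to 0.09 and 0.18 on log2(TPM + 1). Pde8a fell by 0.64 with MCC950 (adjusted p = 0.00118), a call lost on log2(TPM + 1) at -0.44 (adjusted p = 0.129). Pde2a, which cGMP stimulates, varied too much within groups for a statement: it ran from 96.2 to 131 CPM in untreated, from 36.3 to 100.2 CPM in anti-IL-1b and from 53.4 to 100.2 CPM in MCC950 libraries.

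**Figure D5:**
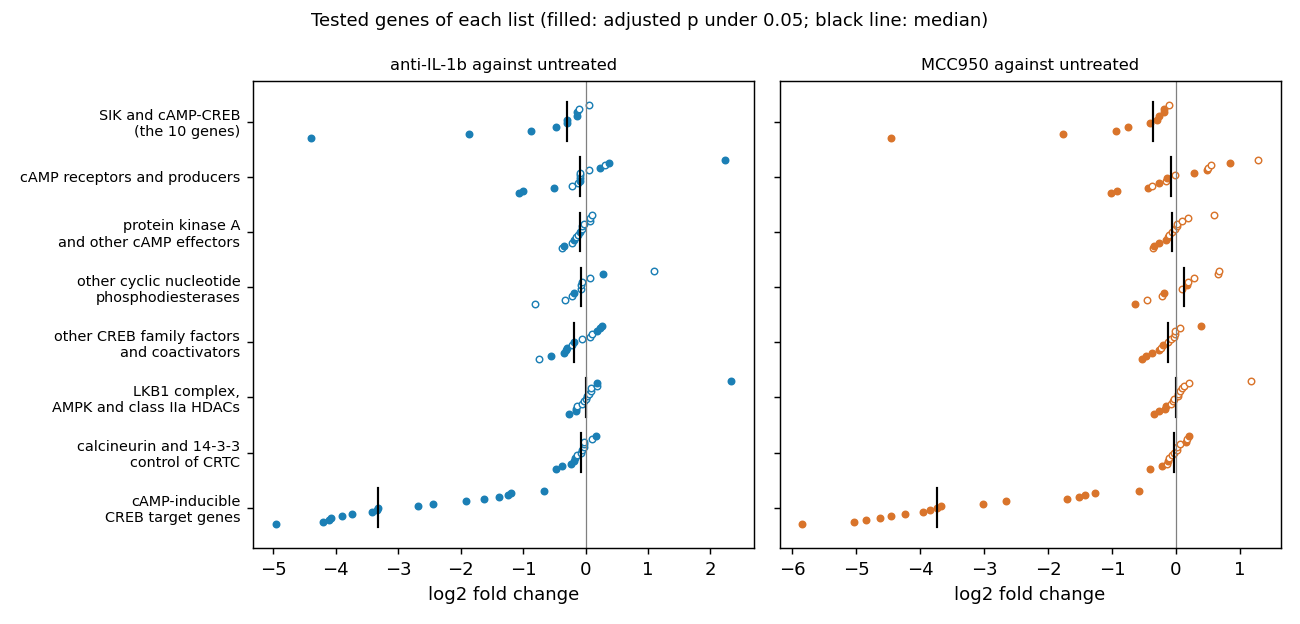
Log2 fold changes against untreated of the tested genes in each list, for anti-IL-1b (left) and MCC950 (right), 1 point per gene, filled at an adjusted p under 0.05, with a black line at the list's median. The CREB target genes, a list chosen with their fall known, lie wholly below 0, with medians of -3.33 and -3.74. The medians of the 6 other pathway lists lie between -0.19 and 0.13.

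Other CREB family factors and coactivators moved both ways. Of 16 genes, 13 were tested; 3 were higher and 5 lower with anti-IL-1b, and 1 was higher and 5 lower with MCC950, where 34.0% and 36.8% of all tested genes were called in either direction. The acetyltransferase genes Crebbp and Ep300, whose proteins bind phosphorylated CREB, fell with both agents: Crebbp by 0.31 and 0.53 (adjusted p = 3.36e-08 and 2.70e-14) and Ep300 by 0.30 and 0.46 (adjusted p = 5.91e-09 and 1.30e-13). The difference between the agents itself passed for Crebbp, at 0.22 (adjusted p = 9.00e-05), and for Ep300, at 0.15 (adjusted p = 0.00258). That of Ep300 was lost on log2(TPM + 1) (adjusted p = 0.351) and without anti-IL-1b replicate 2 (adjusted p = 0.0519). On log2(TPM + 1) Ep300 turned to 0.14 with anti-IL-1b and stood at -0.06 with MCC950 (adjusted p = 0.728), and Crebbp had no call with anti-IL-1b (-0.18, adjusted p = 0.213) or between the agents (adjusted p = 0.109). Kat2b, another acetyltransferase gene, fell more with anti-IL-1b (by 0.56) than with MCC950 (by 0.27), and that difference of -0.29 passed (adjusted p = 3.26e-05). On log2(TPM + 1) Kat2b had no call with MCC950 (-0.04, adjusted p = 0.78) or for the difference (adjusted p = 0.0569). Crebzf rose by 0.26 and 0.39 (adjusted p = 2.04e-06 and 2.90e-10), and Crebrf rose with anti-IL-1b by 0.23 (adjusted p = 1.73e-04) and stood at -0.02 with MCC950; on log2(TPM + 1) its rise did not pass (0.31, adjusted p = 0.216). The remaining calls, named after their values were seen, were Atf1 (-0.19 and -0.20) with both agents, Creb3 (-0.34) and Atf7 (0.19) with anti-IL-1b and Creb3l2 (-0.38) with MCC950.

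Upstream of the salt-inducible kinases, Stk11, which encodes LKB1, fell by 0.16 with anti-IL-1b (adjusted p = 0.00356) and stood at -0.07 with MCC950 (adjusted p = 0.240). Its partner Cab39 fell by 0.15 and 0.17 (adjusted p = 0.00224 and 3.84e-04), and Prkaa1, the AMPK catalytic subunit gene that LKB1 also serves, fell by 0.27 and 0.34 (adjusted p = 3.89e-04 and 1.44e-05). Scaling by library totals took away the calls of Stk11, Cab39 and Prkaa1 with anti-IL-1b, and that of Cab39 with MCC950, and so did log2(TPM + 1). In all, 14 of 15 genes of the LKB1 complex, AMPK and the class IIa histone deacetylases, further substrates of the salt-inducible kinases, were tested; 2 were higher and 3 lower with anti-IL-1b, and 0 higher and 4 lower with MCC950, beside 34.0% and 36.8% called over all tested genes. Prkag1 fell by 0.27 with MCC950 (adjusted p = 2.60e-04), a call lost on log2(TPM + 1) at -0.08 (adjusted p = 0.445). With anti-IL-1b Prkag1 gained a call without anti-IL-1b replicate 2 (-0.18, adjusted p = 0.037). Hdac9 rose with anti-IL-1b from 0.534 ± 0.131 to 2.73 ± 0.886 CPM (SD, n = 3; adjusted p = 2.35e-04), at a level so low that few counts carry it. With MCC950 its 1.17 did not pass (adjusted p = 0.0663), but it did with library totals (1.28, adjusted p = 0.0384) and without MCC950 replicate 3 (1.47, adjusted p = 0.0266). Named after their values were seen, Hdac5 was called with anti-IL-1b (0.18) and Hdac4 with MCC950 (-0.15).

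Of 14 calcineurin and 14-3-3 genes, whose proteins set where CRTCs reside, 13 were tested; 1 was higher and 5 lower with anti-IL-1b, and 2 were higher and 3 lower with MCC950. Over all tested genes, 15.4% were higher and 18.5% lower with anti-IL-1b, and 17.7% and 19.1% with MCC950. Ppp3r1, the calcineurin regulatory subunit gene, fell by 0.37 and 0.40 (adjusted p = 7.17e-08 and 7.50e-09). The 14-3-3 gene Ywhah went from 205 ± 2.54 CPM to 148 ± 6.87 CPM with anti-IL-1b and 178 ± 4.34 CPM with MCC950 (SD, n = 3), and was lower with anti-IL-1b than with MCC950 by 0.27 (adjusted p = 4.08e-06). Ywhaz fell by 0.19 and 0.13 (adjusted p = 8.98e-07 and 3.66e-04), Ywhag fell with anti-IL-1b by 0.24 (adjusted p = 5.41e-04), and Ywhae rose with MCC950 by 0.16 (adjusted p = 0.00213). With library totals the calls of Ywhaz (-0.07 and -0.02), of Ywhag with anti-IL-1b (-0.12, adjusted p = 0.0937) and of Ywhah with MCC950 (-0.09, adjusted p = 0.0559) were lost. On log2(TPM + 1) they were lost too, with Ywhah turned to 0.07, as was that of Ppp3r1 with anti-IL-1b (-0.16, adjusted p = 0.11). Named after their values were seen, Rcan3 was called with both agents (0.17 and 0.20) and Ywhaq with anti-IL-1b (-0.17).

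The classical cAMP-inducible CREB target genes fell together, and the median of their list fell by far more than those of the signalling lists. Of 20 on the list, 17 were tested, and all 17 were lower with each agent, beside 18.5% and 19.1% lower over all tested genes. The list's median log2 fold change was -3.33 with anti-IL-1b and -3.74 with MCC950. Many of these 17 genes are also immediate-early genes that calcium, mitogens and tissue handling induce. The list was chosen with their fall in these libraries known, so its count and medians are not independent evidence of a direction or a size. The smallest fall was that of Id2, named after its values were seen, at -0.67 and -0.57, less than that of Ptger4. The AP-1 gene Fosb stood at 688, 670.1 and 703 CPM in untreated, at 46.3, 45.9 and 45.8 CPM in anti-IL-1b and at 13.0, 10.4 and 12.7 CPM in MCC950 libraries. The 3 groups were fully separate, with log2 fold changes of -3.90 (adjusted p = 4.67e-42) and -5.84 (adjusted p = 1.76e-45).

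The phosphatase gene Dusp1 followed the same order, at 565 ± 5.998, 56.2 ± 1.65 and 36.2 ± 0.757 CPM in untreated, anti-IL-1b and MCC950 libraries. So did the nuclear receptor gene Nr4a1, at 963 ± 14.8, 72.1 ± 2.35 and 50.9 ± 3.70 CPM, and Fos, at 1117 ± 6.25, 205 ± 2.75 and 138 ± 2.02 CPM (SD, n = 3). Between the agents, 7 of the 17 targets were higher with anti-IL-1b than with MCC950 and 2 were lower, with a median of 0.33. Over all tested genes, 6.13% were higher and 7.11% lower in that comparison. Sik1 and Crem, targets themselves, did not pass in it. Of the 14 heat shock and handling stress genes, 13 were lower with each agent against untreated, beside 18.5% and 19.1% of all tested genes. These 14 were likewise picked after earlier results of these data were known, so their counts are not independent evidence of a direction. Of these 14, 12 were lower and 1 higher with anti-IL-1b than with MCC950, beside the same 7.11% and 6.13%. Their part in the fall of Sik1, Crem and the CREB targets was not tested.

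The genes whose pattern over the 9 libraries was most like that of Sik1 were Tnfaip3, Fosl2 and Nr4a1. Likeness was measured as the root mean square difference of log2 CPM after centring each gene on its own mean, over 9876 candidate genes; it was 0.224 for Tnfaip3, 0.268 for Fosl2 and 0.274 for Nr4a1. Tnfaip3, which encodes the NF-kB inhibitor A20, stood at 1387 ± 0.679 CPM in untreated, 93.9 ± 3.82 CPM in anti-IL-1b and 70.8 ± 1.67 CPM in MCC950 libraries, and Fosl2 at 246 ± 9.63, 14.2 ± 1.67 and 17.1 ± 0.424 CPM. For Crem the nearest were Grasp (0.085), Hexim1 (0.088) and Acot2 (0.089). Grasp stood at 113 ± 2.91, 31.8 ± 3.02 and 36.9 ± 2.43 CPM, and Hexim1, whose protein restrains the elongation factor P-TEFb, at 312 ± 16.7, 85.7 ± 5.90 and 96.1 ± 1.604 CPM (SD, n = 3). Each pattern is mainly the gap between untreated and treated libraries.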

How the data were processed

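Poly(A) libraries of 9 samples were grouped by their labels. STAR and RSEM, of unstated version, were run on mm10, per the submitters' processing notes. Per the file headers, the deposited expected counts are estimated by RSEM for each gene and are not normalized. Deposited TPM values are scaled for effective length to a common total, per the file headers, so they move with the mean transcript length RSEM set for each library; the deposited FPKM values were used only as a check of each library's sum, per the file headers. Deposited transcript lengths and effective lengths, in bases, are RSEM's, per the file headers. The library kit keeps strand, per the labels' protocols; the strand setting of the counting is unknown here. Of the gene IDs, 99.4% had a symbol in GENCODE M21.

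Expected counts were rounded and analysed by the quasi-likelihood method of edgeR (4.0.16, R 4.3.3; robust, TMM, filterByExpr) in one fit of 3 group means over 9 libraries, with Benjamini-Hochberg adjustment over 13374 genes. The common biological coefficient of variation was 0.071. The procedure was also run on simulated data with few changed genes, as many raised as lowered, which do not test the scaling of libraries. The pathway genes and lists were chosen with earlier results of these data known. From each list, the 5 tested genes with the smallest p across the 3 groups are named, and for each of Sik1 and Crem the 3 genes nearest in pattern (mean log2 CPM at least 2). A gene that the rule names is not reported here and none took its place, while list counts and sums kept all members. Alternatives were other scalings and filters, DESeq2 1.42.0, limma-voom and limma-trend on log2(TPM + 1) and log2(TPM + 0.1) (limma 3.58.1), the replicate number as a block, no robust option, each comparison on its own 6 libraries, and leaving out each library. Genes named after their values were seen were not followed singly through these alternatives. Promoters are RefSeq's for GRCm38.p6. Protein sequences were not used here.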

Additional observations from a re-analysis of the deposited data

How the results depend on the processing

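Across the 21 alternatives no call of the 10 genes changed direction. Values of log2(TPM + 1) and log2(TPM + 0.1) move with the transcript lengths RSEM set for each library, and they were not scaled by TMM. They brought the median log2 fold change over all genes to 0.14 and 0.16 with anti-IL-1b and to 0.09 and 0.11 with MCC950. With either, 4 of the 10 genes passed with anti-IL-1b in place of 8 (Sik1, Crem, Pde4b and Pde4d). With MCC950, 6 passed in place of 9 (Creb1, Crtc2 and Pde3b were lost). The parts of length and scaling in these losses were not tested. Over all genes, log2(TPM + 1) called 3263 with MCC950 and 572 between the agents, and log2(TPM + 0.1) called 565 between the agents. Directions of some pathway genes turned: Akap13 with anti-IL-1b to 0.03 with library totals and 0.14 with both TPM settings; with both TPM settings also Pde7a (0.09) and Ep300 (0.14) with anti-IL-1b, Prkacb (0.13), Rapgef4 (0.23 and 0.24), Pde7a (0.18 and 0.19) and Ywhah (0.07) with MCC950, and Crebzf (0.02) between the agents. None of these passed there, and the cause was not tested. Library totals took the calls of Sik3 (-0.02) and Creb1 (-0.01) with anti-IL-1b; upper-quartile scaling did so too, at -0.09 each. Splits with upper-quartile scaling were 2687 higher and 1941 lower with anti-IL-1b and 2859 and 2211 with MCC950, and with log2(TPM + 1) 2645 and 865, and 2169 and 1094. Leaving out 1 library gave 3954 to 4498 genes with anti-IL-1b, 4201 to 5021 with MCC950 and 1246 to 1763 between the agents, and 6 to 8, 9 and 1 of the 10 genes. With the replicate number as a block, 4483, 4855 and 1704 genes and 8, 9 and 1 of the 10 genes passed. Whether the numbers pair the libraries was not settled. Deviations of same-numbered libraries correlated at -0.096 to 0.14 over 9 pairs, of which 2 were over 0.1. Those of different-numbered ones correlated at -0.175 to 0.078 over 18 pairs, of which 0 were over 0.1. Correlations this weak, with 3 libraries a group, cannot decide it. With 3 libraries a group and 87 to 139 counts, Crem's difference between the agents is the least precise of the 10.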
